A study of Homo sapiens with 18 samples.

Results

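ATP-binding cassette (ABC) proteins are molecular pumps that use ATP to move lipids, sterols, peptides, metal cofactors, conjugated metabolites and drugs across membranes. They fall into classes A to G by sequence. In cultured epithelium the A and G classes are known mainly for lipid and sterol export, the B, C and G classes include the multidrug efflux pumps, the D class serves peroxisomes and lysosomes, and the E and F proteins have no membrane domain and act on ribosomes. The genes described here were found by symbol: every gene whose symbol was ABC, a letter A to G and a number, and that had a probe set annotated to that symbol alone. This rule found 43 ABC genes among the 18417 genes tested, and where a gene had several probe sets the one with the highest mean over the 18 arrays stood for it. TAP1, TAP2 and CFTR are ABC proteins under other symbols and are given with their pathway below.

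The study measured total RNA of 2 human breast epithelial lines, HMLE (given as HMLEC in one label) and MCF10A, on 18 expression arrays. Each line carried the transcription factor Snail, the transcription factor Twist or an empty vector, which gave 6 groups of 3 arrays: HMLE Snail, HMLE Twist, HMLE vector, MCF10A Snail, MCF10A Twist and MCF10A vector. Snail and Twist are known for driving epithelial-mesenchymal transition, in which epithelial cells lose E-cadherin and gain fibroblast-like genes. HMLE are immortalised human mammary epithelial cells, and MCF10A is a non-tumorigenic mammary epithelial line. The factors were introduced by transfection and stable clones were picked. The cells of every group were grown in serum-containing DMEM/F12 and harvested in log growth. The labels used here do not say which promoter drove the factors, nor how many clones each group represents, nor whether the 3 arrays of a group came from separate cultures. The p-values therefore measure the spread between arrays, which may be technical. In RNA from whole cultures, fewer cells of a type and less RNA per cell cannot be told apart. Values are log2 array signals, and a difference of 1 is 2-fold. Changes were compared between groups for 1 probe set at a time. Levels of different genes were set side by side only as a rough guide to low signal, by percentile of all genes or beside a marker gene. A gene is said to have risen or fallen where limma's moderated test gave a Benjamini-Hochberg adjusted p under 0.05 over all 18417 genes.

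SNAI1 went with the Snail labels, and TWIST1 was highest in the Twist-labelled group of each line but was also raised in HMLE Snail. The line label of 1 group was not borne out. SNAI1, which encodes Snail, averaged 12.53 ± 0.01 in HMLE Snail against 7.39 ± 0.14 in HMLE vector, and 12.49 ± 0.07 in MCF10A Snail against 8.32 ± 0.14 in MCF10A vector (SD, n = 3 each). TWIST1 averaged 11.49 ± 0.14 in HMLE Twist against 9.69 ± 0.01 in HMLE vector, and 10.99 ± 0.03 in the arrays labelled MCF10A Twist against 10.07 ± 0.10 in MCF10A vector. TWIST1 was also 10.81 ± 0.04 in HMLE Snail, so a level above vector was not particular to the Twist labels. MTAP, which lies at a locus known to be deleted in MCF10A, went against the line label of the MCF10A Twist arrays: it averaged 10.80 ± 0.03 there, against 6.02 ± 0.15 in MCF10A Snail and 5.98 ± 0.36 in MCF10A vector, whereas the 3 HMLE groups averaged 9.83 to 10.26. These arrays are called "labelled MCF10A Twist" throughout, and any change given for them against MCF10A vector rests on that label. The mean of 7 epithelial markers was high in both vector groups, between 12.54 and 12.59 in HMLE vector and between 11.70 and 11.74 in MCF10A vector. That mean lay between 8.34 and 8.35 in HMLE Snail, 7.63 and 7.83 in HMLE Twist, 7.86 and 7.95 in labelled MCF10A Twist, and 11.27 and 11.34 in MCF10A Snail. Of the 7, GRHL2 was not high in MCF10A vector. It averaged 6.10 there and 6.02 in HMLE Snail, against 10.21 in HMLE vector. The counts of epithelial markers below include GRHL2. The mean of 8 fibroblast markers lay between 10.77 and 10.78 in HMLE Snail, 10.69 and 10.76 in HMLE Twist and 10.20 and 10.23 in labelled MCF10A Twist. It lay between 7.80 and 7.87 in MCF10A Snail, against 7.45 to 7.57 in HMLE vector and 7.47 to 7.61 in MCF10A vector. Of the markers of other cell types, at most 2 of 6 endothelial, 2 of 5 leukocyte, 1 of 5 adipocyte and 0 of 4 hepatocyte markers rose in any of the 4 comparisons with vector.

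The upstream sequences of 3 members are shown because these genes had some of the largest contrasts between the lines or between factor and vector. RefSeq promoter sequences (GRCh38.p14) matched 34 of the 43 genes by symbol, and ABCA8 was not among them. Each line gives the 250 bases before the annotated start, 5′ to 3′ on the gene's strand, and capitals mark the letters CAGGTG, an E-box known to be bound by Snail.
ABCA12, chr2:215138627-215138876, minus strand: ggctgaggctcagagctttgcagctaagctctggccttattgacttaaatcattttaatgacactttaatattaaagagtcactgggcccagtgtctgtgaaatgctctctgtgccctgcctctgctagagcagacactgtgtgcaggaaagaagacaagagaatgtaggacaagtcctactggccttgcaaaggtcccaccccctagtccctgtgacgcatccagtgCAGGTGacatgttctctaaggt
ABCA6, chr17:69141896-69142145, minus strand: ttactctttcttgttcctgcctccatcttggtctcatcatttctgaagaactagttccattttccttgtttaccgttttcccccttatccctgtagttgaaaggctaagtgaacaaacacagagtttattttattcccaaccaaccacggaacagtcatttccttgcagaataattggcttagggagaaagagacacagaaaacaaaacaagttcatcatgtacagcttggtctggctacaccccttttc
ABCG2, chr4:88231627-88231876, minus strand: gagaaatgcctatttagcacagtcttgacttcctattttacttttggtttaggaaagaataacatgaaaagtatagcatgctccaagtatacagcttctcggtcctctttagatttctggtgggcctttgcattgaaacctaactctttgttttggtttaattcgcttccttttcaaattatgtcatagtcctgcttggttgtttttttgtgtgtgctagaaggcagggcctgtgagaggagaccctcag
ABCA12 held CAGGTG once, beginning 22 bases before the start, and ABCA6 and ABCG2 held it on neither strand. Searched on both strands, CAGGTG was present in 9 of the 34 ABC windows (26.5%), against 17.5% of all 27305 windows of the same length. Of the genes with it, ABCA1, ABCA2 and ABCA5 rose in HMLE Snail, ABCA12, ABCB8 and ABCB9 fell, and ABCA3, ABCC12 and ABCG8 did not pass. Over all genes 22.9% rose and 24.8% fell in HMLE Snail. The ABCB8 fall was seen on its chosen probe set only, and its other probe sets gave 0.20 and 0.10. The broader motif CANNTG, which includes CAGGTG, was present in 22 of 34 (64.7%), against 62.2% of all windows. A match is a description of the letters and not a binding site. A single annotated start per gene was searched, so a window without the motif says nothing of other starts of that gene.

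Against vector, the share of ABC genes that changed was near that of all genes, and the members differed widely in size and direction of change. In HMLE Snail 23 of 43 members changed, against a background of 47.7% of all genes; 11 rose (background 22.9%) and 12 fell (24.8%). In HMLE Twist 21 changed (background 43.7%), of which 11 rose (23%) and 10 fell (20.7%). In MCF10A Snail 12 changed (background 22.7%), of which 5 rose (10.7%) and 7 fell (12%). In labelled MCF10A Twist 23 changed (background 50.4%), of which 8 rose (26.5%) and 15 fell (23.9%). The HMLE Snail and HMLE Twist comparisons share the HMLE vector arrays, and the MCF10A comparisons share the MCF10A vector arrays. The median change of the 43 members was -0.04, -0.01, -0.01 and 0.01 in HMLE Snail, HMLE Twist, MCF10A Snail and labelled MCF10A Twist, and that of all genes was -0.01, 0.02, -0.02 and 0.03.

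Changes that were also at least 2-fold were found for 12 members in any of the 4 comparisons with vector: ABCA1, ABCA3, ABCA6, ABCA8, ABCA9, ABCA12, ABCB6, ABCB10, ABCC2, ABCC3, ABCD2 and ABCG2. By comparison they numbered 6 of 43 in HMLE Snail (background 8.88%), 6 in HMLE Twist (7.89%), 2 in MCF10A Snail (1.79%) and 7 in labelled MCF10A Twist (10.5%). In each of these cases the 3 arrays of one group did not overlap the 3 of the other. This adds little, as these members were picked for a called change of at least 2-fold. The share of all genes without overlap was not counted, and ABCB1 did not overlap in HMLE Snail without passing the test. Where single members are said below not to overlap, this describes their values only. At the other end, 11 members passed the test in none of the 4 comparisons, and no change among them was larger than 0.23 in either direction. These were ABCA4, ABCB1, ABCB4, ABCB5, ABCC8, ABCC11, ABCC12, ABCC13, ABCF3, ABCG5 and ABCG8, and 8 of the 11 had a mean level below the 25th percentile of all genes.

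**Figure D1:**
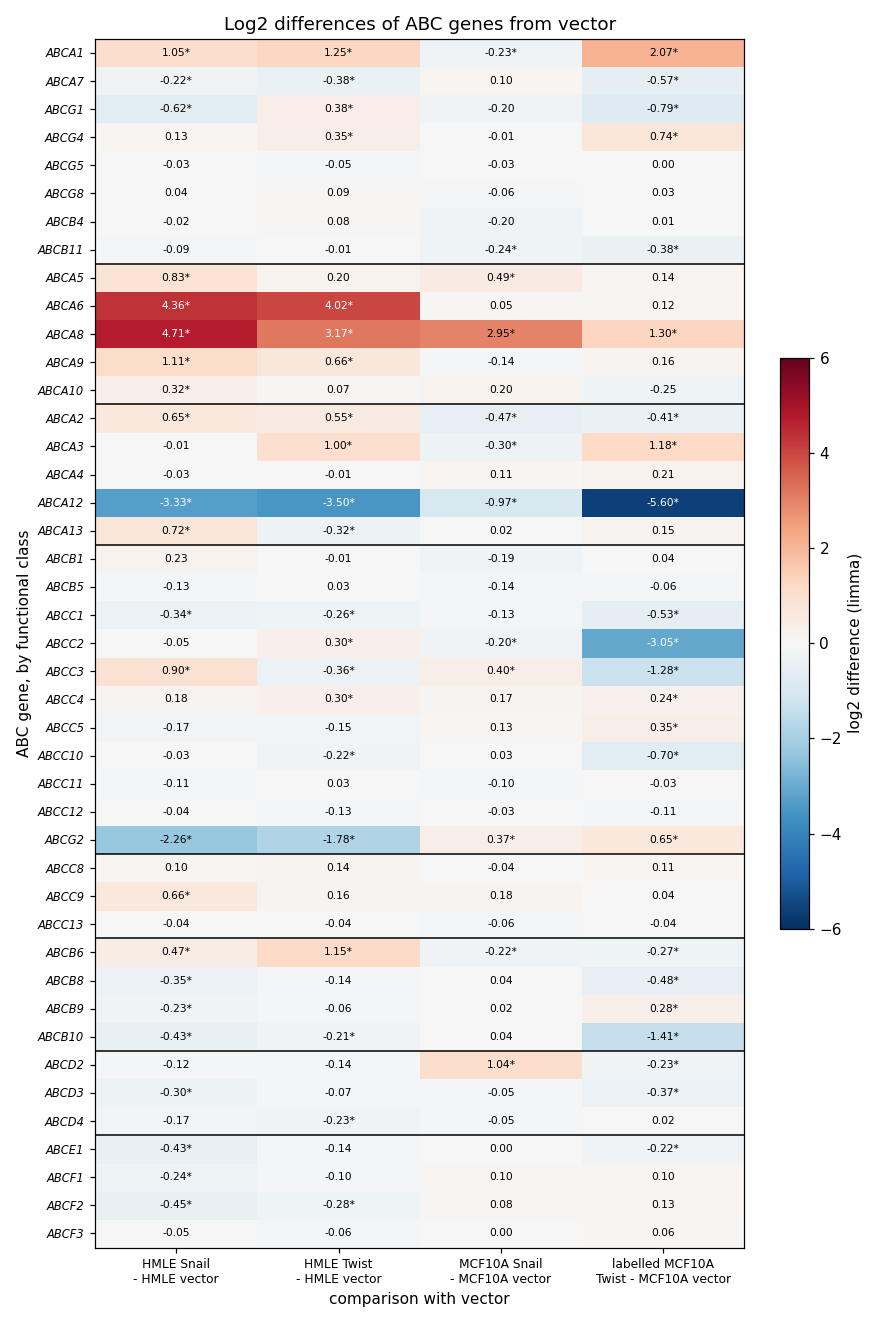
Log2 differences of the 43 ABC genes (rows, by class) in the 4 comparisons with vector (columns), on a colour scale of log2 difference, with each value printed and an asterisk where the adjusted p was under 0.05. ABCA6 and ABCA8 stand out as higher and ABCA12 and ABCG2 as lower in the HMLE columns, and ABCA12 and ABCC2 as lower in the labelled MCF10A Twist column.

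The largest increases were in the ABCA6-like group, 5 related A-class genes that lie next to each other on chromosome 17 in the order ABCA8, ABCA9, ABCA6, ABCA10 and ABCA5. ABCA5 is a lysosomal lipid transporter, ABCA8 has been linked to lipid efflux, and the substrates of the others are less well defined. In HMLE Snail all 5 rose, in HMLE Twist 3 of 5 rose, in MCF10A Snail 2 of 5 and in labelled MCF10A Twist 1 of 5, and none fell.

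ABCA8 was 9.55, 9.46 and 9.64 in HMLE Snail and 8.26, 7.83 and 7.94 in HMLE Twist, against 4.83, 4.68 and 5.00 in HMLE vector. It was 8.36, 7.87 and 8.14 in MCF10A Snail and 6.60, 6.42 and 6.38 in labelled MCF10A Twist, against 5.07, 5.06 and 5.37 in MCF10A vector. Every factor group lay above its vector with no overlap. The log2 differences were 4.71 in HMLE Snail (adjusted p = 1.26e-14), 3.17 in HMLE Twist, 2.95 in MCF10A Snail (adjusted p = 6.41e-11) and 1.30 in labelled MCF10A Twist (SE 0.13 each). No detection call was used here, and the vector arrays read ABCA8 at about the signal of LYZ, a leukocyte marker that averaged 4.79 in HMLE vector and 4.90 in MCF10A vector, so these differences may understate the change. ABCA8 was the only member that rose at least 2-fold in all 4 comparisons. In the direct comparison it was higher in HMLE Snail than in HMLE Twist by 1.54 ± 0.13 (SE, adjusted p = 9.11e-08).

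ABCA6 showed a different pattern, with 1 low group out of 6. It was 9.57, 9.51 and 9.65 in HMLE Snail and 9.47, 8.99 and 9.26 in HMLE Twist, against 5.13, 5.47 and 5.05 in HMLE vector. It was 9.59, 9.55 and 9.45 in MCF10A Snail and 9.72, 9.46 and 9.61 in labelled MCF10A Twist, against 9.49, 9.45 and 9.50 in MCF10A vector. It rose by 4.36 in HMLE Snail and by 4.02 in HMLE Twist, with an SE of 0.11 and adjusted p of 5.08e-15 and 1.38e-14. The MCF10A Snail difference was 0.05 (95% interval -0.19 to 0.29), and the HMLE vector minus MCF10A vector difference was -4.26. The HMLE vector values were close to those of the hepatocyte marker ALB, which averaged 5.37 there, so these sizes too may be understated.

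The other 3 genes of the group moved less. ABCA9 was 6.64, 6.67 and 6.57 in HMLE Snail and 6.12, 6.16 and 6.23 in HMLE Twist, against 5.61, 5.20 and 5.74 in HMLE vector, and its changes of 1.11 ± 0.10 and 0.66 ± 0.10 (SE) both passed the test. ABCA9 did not pass in MCF10A Snail (-0.14) or labelled MCF10A Twist (0.16). The mean of ABCA9 over the 18 arrays was 6.31, at the 16.5th percentile of all genes, and its signal was lowest in HMLE vector. ABCA5 rose by 0.83 in HMLE Snail and 0.49 in MCF10A Snail, and ABCA10 rose by 0.32 in HMLE Snail (adjusted p = 0.038). The mean of ABCA10 over the 18 arrays was 5.14, at the 5th percentile of all genes, so its rise rests on signal in the low range. Outside the group, the next protein-coding genes on either side were FAM20A, beside ABCA8, and MAP2K6, beside ABCA5; they were chosen after values were seen. FAM20A differed from vector by 0.41 in HMLE Snail, 0.57 in HMLE Twist, 0.00 in MCF10A Snail and 0.66 in labelled MCF10A Twist, and MAP2K6 passed the test only in labelled MCF10A Twist (0.48). The fibroblast markers moved with the HMLE changes of this group: 8 of 8 rose in HMLE Snail and in HMLE Twist, 3 of 8 in MCF10A Snail and 7 of 8 in labelled MCF10A Twist. Their part in the ABCA6-like changes was not tested.

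**Figure D2:**
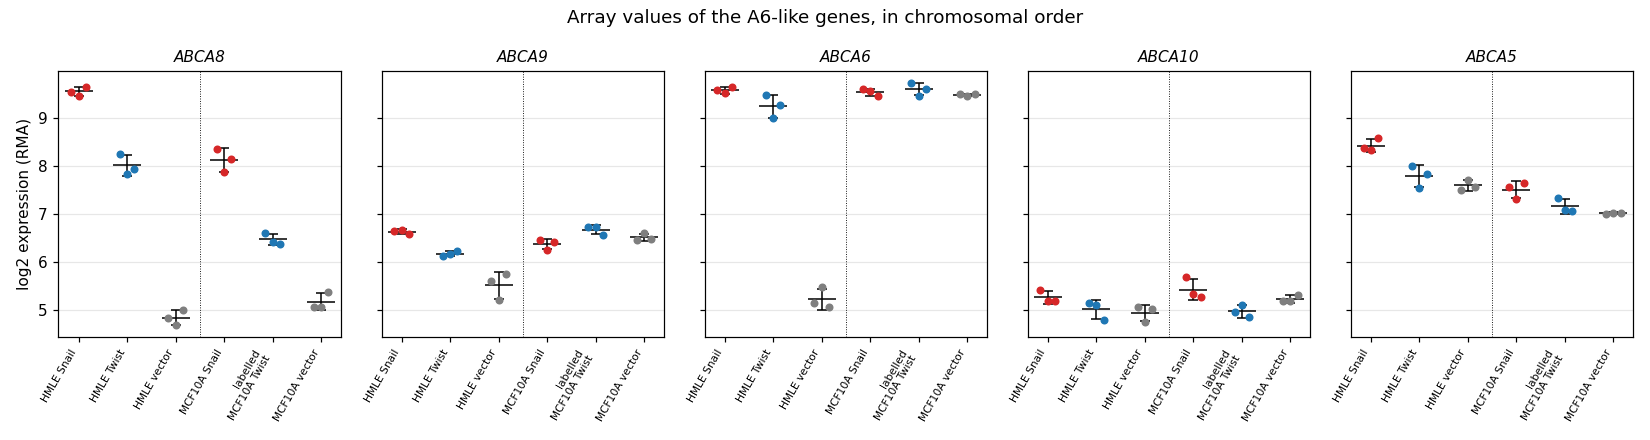
Log2 signal of the 5 ABCA6-like genes in each of the 18 arrays, by group, with points for arrays and a horizontal line and error bar for the group mean and SD (n = 3). ABCA8 lies above vector in all 4 factor groups, whereas ABCA6 is low in HMLE vector alone, at 5.05 to 5.47.

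The largest decrease was that of ABCA12, the keratinocyte transporter that loads glucosylceramide into lamellar granules for the skin lipid barrier. It was 6.47, 6.61 and 6.50 in HMLE Snail and 6.54, 6.33 and 6.20 in HMLE Twist, against 9.81, 9.89 and 9.87 in HMLE vector. It was 10.42, 10.38 and 10.30 in MCF10A Snail and 5.72, 5.67 and 5.79 in labelled MCF10A Twist, against 11.29, 11.31 and 11.41 in MCF10A vector. Each factor group lay below its vector with no overlap. ABCA12 fell in HMLE Snail (-3.33), HMLE Twist (-3.50), MCF10A Snail (-0.97) and labelled MCF10A Twist (-5.60), with an SE of 0.07 each and adjusted p of at most 4.90e-08. The epithelial markers fell with it: 7 of 7 in HMLE Snail and in HMLE Twist, 4 of 7 in MCF10A Snail and 6 of 7 in labelled MCF10A Twist, and their part in the ABCA12 change was not tested. GRHL2, already low in MCF10A vector, is among the 7.

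Genes of ceramide metabolism and the skin barrier did not move as one. Of 8 measured, 2 rose and 5 fell in HMLE Snail, 2 rose and 3 fell in HMLE Twist, 1 rose and 3 fell in MCF10A Snail, and 3 rose and 2 fell in labelled MCF10A Twist. ALOXE3, a lipoxygenase of the skin barrier, fell in HMLE Snail (-2.04), HMLE Twist (-2.11), MCF10A Snail (-0.26) and labelled MCF10A Twist (-0.24). TGM1, the transglutaminase that cross-links the cornified envelope, fell in HMLE Snail (-0.76), HMLE Twist (-0.56), MCF10A Snail (-2.27) and labelled MCF10A Twist (-4.70). UGCG, which makes glucosylceramide, rose by 1.21 in HMLE Snail, 1.09 in HMLE Twist and 1.55 in labelled MCF10A Twist, and fell by 0.24 in MCF10A Snail.

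The other A-class transporters of specialised lipids differed by factor or by line. ABCA3, the surfactant lipid transporter of lamellar bodies, was 8.39, 8.43 and 8.56 in HMLE Twist and 7.44, 7.51 and 7.40 in HMLE Snail, against 7.45, 7.53 and 7.41 in HMLE vector. It was 9.05, 9.06 and 9.03 in labelled MCF10A Twist and 7.43, 7.73 and 7.54 in MCF10A Snail, against 7.87, 7.90 and 7.83 in MCF10A vector. The Twist groups were high and did not overlap the others. ABCA3 rose by 1.00 ± 0.07 (SE, adjusted p = 2.00e-09) in HMLE Twist and 1.18 ± 0.07 (adjusted p = 1.50e-10) in labelled MCF10A Twist, and fell by 0.30 in MCF10A Snail, and the direct HMLE Snail minus HMLE Twist difference was -1.01 (adjusted p = 5.74e-09). ABCA2, an endolysosomal transporter abundant in oligodendrocytes, rose by 0.65 in HMLE Snail and 0.55 in HMLE Twist and fell in MCF10A Snail (-0.47) and labelled MCF10A Twist (-0.41). ABCA13, a very large A-class protein, was 8.34, 8.22 and 8.26 in HMLE Snail and 7.24, 7.17 and 7.30 in HMLE Twist, against 7.58, 7.65 and 7.44 in HMLE vector. It thus rose in HMLE Snail (0.72) and fell in HMLE Twist (-0.32), and the direct difference was 1.04 ± 0.07 (SE, adjusted p = 3.62e-09).

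The drug and conjugate exporters, 11 members, did not share a direction: 1 rose and 2 fell in HMLE Snail, 2 rose and 4 fell in HMLE Twist, 2 rose and 1 fell in MCF10A Snail, and 3 rose and 4 fell in labelled MCF10A Twist. Over all genes the shares rising and falling were 22.9% and 24.8% in HMLE Snail, 23% and 20.7% in HMLE Twist, 10.7% and 12% in MCF10A Snail, and 26.5% and 23.9% in labelled MCF10A Twist, and the counts of each class and list are to be read against these. ABCG2 (BCRP), the drug and urate pump that marks side population cells, was 5.41, 5.33 and 5.49 in HMLE Snail and 5.79, 5.82 and 6.04 in HMLE Twist, against 7.68, 7.89 and 7.42 in HMLE vector. It was 6.80, 6.54 and 6.73 in MCF10A Snail and 7.11, 6.86 and 6.95 in labelled MCF10A Twist, against 6.38, 6.40 and 6.18 in MCF10A vector. The HMLE factor groups lay below HMLE vector, and MCF10A Snail and labelled MCF10A Twist lay above MCF10A vector, with no overlap. The rise in labelled MCF10A Twist rests on the line label, as these arrays lay below HMLE vector. ABCG2 fell in HMLE Snail (-2.26, adjusted p = 2.25e-11) and HMLE Twist (-1.78, adjusted p = 6.07e-10), and rose by 0.37 in MCF10A Snail and 0.65 in labelled MCF10A Twist (SE 0.11 each). The HMLE Snail values were close to those of the hepatocyte marker ALB, which averaged 5.26 there, so that fall may be understated.

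ABCC3 (MRP3), a basolateral exporter of glucuronides, separated Snail from Twist. It was 11.26, 11.26 and 11.30 in HMLE Snail and 10.19, 9.86 and 10.02 in HMLE Twist, against 10.41, 10.40 and 10.32 in HMLE vector. It was 11.51, 11.38 and 11.39 in MCF10A Snail and 9.79, 9.75 and 9.71 in labelled MCF10A Twist, against 11.05, 11.03 and 11.00 in MCF10A vector. Both Snail groups lay above their vector and both Twist-labelled groups below it, with no overlap. The changes were 0.90 and -0.36 in HMLE Snail and HMLE Twist, and 0.40 and -1.28 in MCF10A Snail and labelled MCF10A Twist, each with an SE of 0.07 and past the test. The direct HMLE Snail minus HMLE Twist difference was 1.25 ± 0.07 (SE, adjusted p = 3.16e-10).

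ABCC2 (MRP2), the apical exporter of conjugates, was 7.70, 7.70 and 7.60 in labelled MCF10A Twist and 10.55, 10.47 and 10.54 in MCF10A Snail, against 10.76, 10.68 and 10.71 in MCF10A vector. It was 7.55, 7.61 and 7.55 in HMLE Snail and 8.10, 7.83 and 7.82 in HMLE Twist, against 7.62, 7.55 and 7.68 in HMLE vector. The labelled MCF10A Twist arrays thus lay in the HMLE range. ABCC2 fell by 3.05 ± 0.07 (SE, adjusted p = 5.37e-16) in those arrays against MCF10A vector, whereas against HMLE vector they differed by 0.05, which did not pass. It also fell by 0.20 in MCF10A Snail and rose by 0.30 in HMLE Twist.

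The remaining exporters moved by less than 1. ABCC1 (MRP1), which exports glutathione conjugates and leukotriene C4, fell in HMLE Snail (-0.34), HMLE Twist (-0.26) and labelled MCF10A Twist (-0.53). ABCC4 (MRP4), an exporter of cyclic nucleotides and prostaglandins, rose by 0.30 in HMLE Twist and 0.24 in labelled MCF10A Twist. ABCC10 (MRP7), a taxane efflux pump, fell in HMLE Twist (-0.22) and labelled MCF10A Twist (-0.70), and ABCC5 (MRP5) rose by 0.35 in labelled MCF10A Twist. ABCB1, P-glycoprotein, passed the test in no comparison with vector: its difference was 0.23 in HMLE Snail (95% interval 0.00 to 0.46), -0.01 in HMLE Twist (-0.24 to 0.21), -0.19 in MCF10A Snail (-0.42 to 0.04) and 0.04 in labelled MCF10A Twist (-0.19 to 0.27). Its mean over the 18 arrays was 5.71, at the 9.7th percentile of all genes, and a change below the detection of this probe set would not be seen.

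A list of xenobiotic regulators and conjugation genes, which holds receptors and sensors such as AHR and KEAP1 as well as glutathione and conjugating enzymes, moved in both directions in 3 of the 4 comparisons. Of its 17 measured members, 6 rose and 7 fell in HMLE Snail, 5 rose and 6 fell in HMLE Twist, none rose and 6 fell in MCF10A Snail, and 5 rose and 8 fell in labelled MCF10A Twist. GCLC, the catalytic subunit for glutathione synthesis, fell in HMLE Snail (-0.98), HMLE Twist (-2.35) and labelled MCF10A Twist (-1.94). MGST2, a microsomal glutathione transferase, fell in HMLE Snail (-1.31), HMLE Twist (-1.55), MCF10A Snail (-0.89) and labelled MCF10A Twist (-3.18). UGT8 was also lower, averaging 6.47 in HMLE Snail against 8.26 in HMLE vector, and 6.42 in labelled MCF10A Twist against 9.93 in MCF10A vector. GSTA4 went the other way in HMLE Snail, where it averaged 10.71 against 9.36 in HMLE vector.
Among 8 measured prostaglandin genes, 5 rose and 3 fell in both HMLE comparisons, 1 rose and 3 fell in MCF10A Snail, and 3 rose and 5 fell in labelled MCF10A Twist. PTGS2, the inducible cyclooxygenase, fell in HMLE Snail (-2.88), HMLE Twist (-3.26) and labelled MCF10A Twist (-2.32). PTGER4, a prostaglandin E2 receptor, rose by 2.61, 1.60 and 2.11 in the same groups. SLCO2A1, the prostaglandin uptake transporter, rose by 1.09 in HMLE Snail and fell in HMLE Twist (-1.12) and labelled MCF10A Twist (-1.68).

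**Figure D3:**
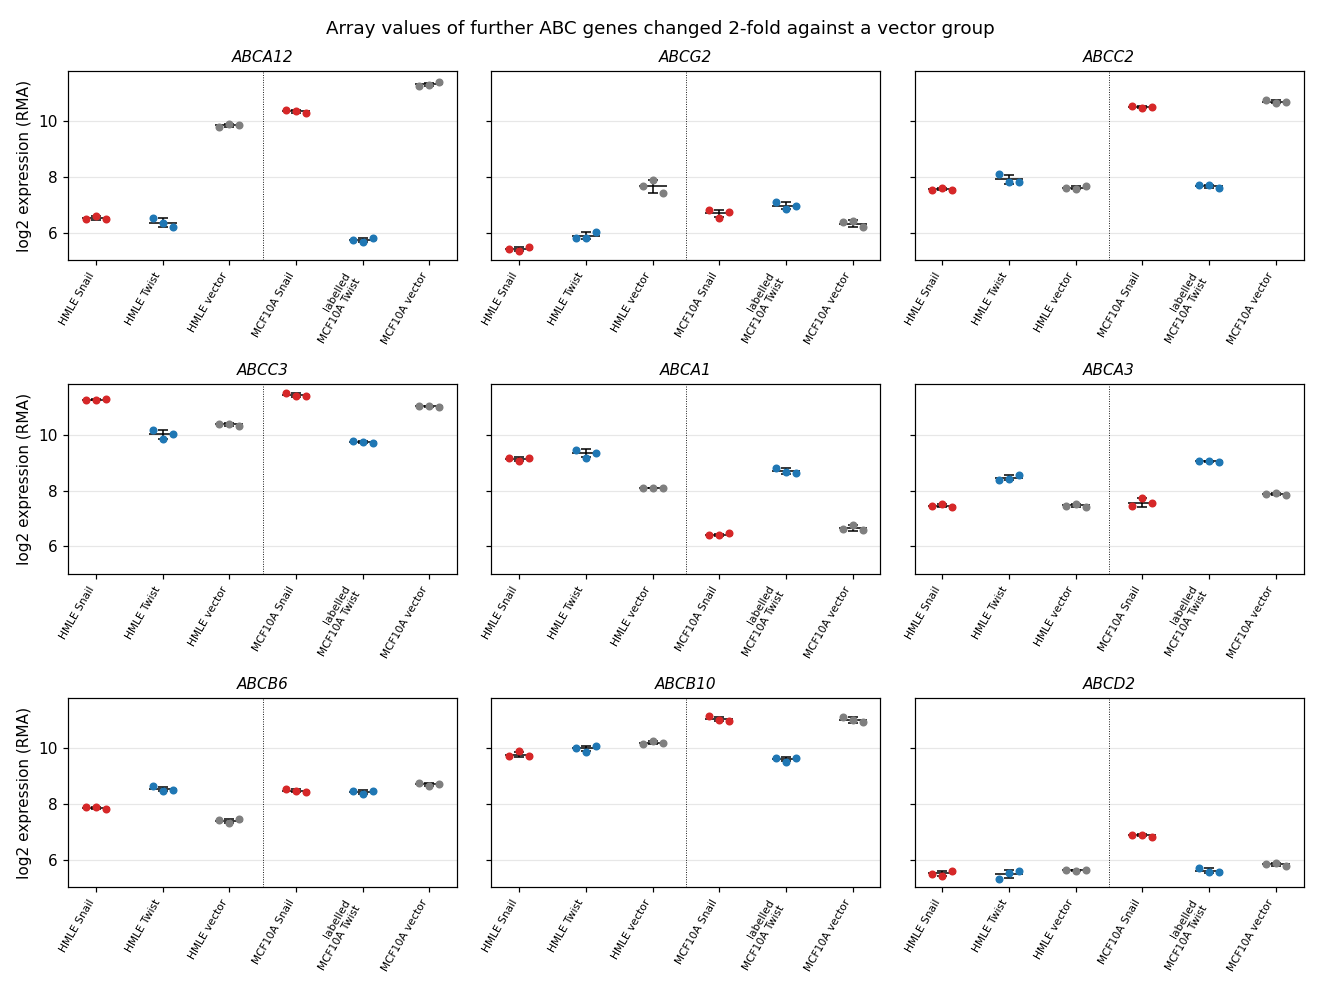
Log2 signal of 9 ABC genes with changes of 2-fold or more outside the ABCA6-like group, in each of the 18 arrays by group; points are arrays, and the line and error bar are the group mean and SD (n = 3). ABCA12 and ABCG2 are below vector in HMLE Snail and HMLE Twist, ABCC3 is above vector in both Snail groups, and ABCC2 is at 7.60 to 7.70 in labelled MCF10A Twist.

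Among the 8 sterol and lipid exporters, ABCA1 was the one member that changed 2-fold against vector. ABCA1 passes cholesterol and phospholipid to apolipoprotein A-I and is a classical target of the liver X receptors. It was 9.17, 9.07 and 9.17 in HMLE Snail and 9.47, 9.18 and 9.37 in HMLE Twist, against 8.09, 8.08 and 8.09 in HMLE vector. It was 6.39, 6.39 and 6.45 in MCF10A Snail and 8.81, 8.66 and 8.64 in labelled MCF10A Twist, against 6.60, 6.75 and 6.56 in MCF10A vector. MCF10A Snail was the one factor group below its vector, and no group overlapped its vector. ABCA1 rose by 1.05 in HMLE Snail (2.07-fold, adjusted p = 2.02e-09), 1.25 in HMLE Twist (2.38-fold) and 2.07 in labelled MCF10A Twist (4.19-fold), and fell by 0.23 in MCF10A Snail, with an SE of 0.07 each.

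ABCG1, which exports sterols to high-density lipoprotein, was 6.88, 7.47 and 7.22 in HMLE Snail and 8.25, 8.16 and 8.14 in HMLE Twist, against 7.81, 7.87 and 7.74 in HMLE vector. It fell in HMLE Snail (-0.62) and rose in HMLE Twist (0.38), with a direct difference of -0.99 ± 0.12 (SE, adjusted p = 5.68e-06), and it fell by 0.79 in labelled MCF10A Twist. ABCG4, its close relative known from brain, rose by 0.35 in HMLE Twist and 0.74 in labelled MCF10A Twist. ABCA7, a phospholipid transporter related to ABCA1, fell in HMLE Snail (-0.22), HMLE Twist (-0.38) and labelled MCF10A Twist (-0.57). The bile transporters ABCB4, ABCG5 and ABCG8 passed in none of the 4 comparisons, and ABCB11, the bile salt export pump, fell in MCF10A Snail (-0.24) and labelled MCF10A Twist (-0.38). The mean of ABCB11 over the 18 arrays was 5.33, at the 6.4th percentile of all genes, so its calls rest on signal in the low range.

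Of 15 measured liver X receptor and sterol genes, 8 rose and 2 fell in HMLE Snail, 7 rose and 5 fell in HMLE Twist, 1 rose and 3 fell in MCF10A Snail, and 4 rose and 6 fell in labelled MCF10A Twist. PLTP, the phospholipid transfer protein, rose by 1.29 in HMLE Snail, 0.75 in HMLE Twist and 1.56 in labelled MCF10A Twist. NR1H3, which encodes liver X receptor alpha, rose by 0.58, 0.91 and 0.36 in the same groups. SCARB1 went the other way in HMLE Snail, where it averaged 10.38 against 11.31 in HMLE vector. The named genes therefore do not stand for the direction of the list. SREBF1, a regulator of lipid synthesis, fell in MCF10A Snail (-0.64) and labelled MCF10A Twist (-1.36) and rose by 0.19 in HMLE Twist.

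The mitochondrial and lysosomal B class had 4 measured members. ABCB6, linked to porphyrin transport, was 8.63, 8.48 and 8.51 in HMLE Twist and 7.88, 7.88 and 7.83 in HMLE Snail, against 7.42, 7.32 and 7.46 in HMLE vector. It was 8.47, 8.36 and 8.47 in labelled MCF10A Twist and 8.54, 8.47 and 8.44 in MCF10A Snail, against 8.75, 8.66 and 8.71 in MCF10A vector. The HMLE factor groups lay above HMLE vector, and MCF10A Snail and labelled MCF10A Twist lay below MCF10A vector, with no overlap. ABCB6 rose by 1.15 ± 0.06 in HMLE Twist (SE, adjusted p = 2.44e-11) and 0.47 in HMLE Snail, and fell in labelled MCF10A Twist (-0.27) and MCF10A Snail (-0.22). The fall in labelled MCF10A Twist rests on the line label, as these arrays lay above HMLE vector.
ABCB10, an inner mitochondrial membrane protein linked to haem synthesis, was 9.66, 9.53 and 9.65 in labelled MCF10A Twist and 11.16, 11.03 and 11.00 in MCF10A Snail, against 11.12, 11.02 and 10.94 in MCF10A vector. It was 9.71, 9.90 and 9.73 in HMLE Snail and 10.02, 9.89 and 10.09 in HMLE Twist, against 10.16, 10.28 and 10.20 in HMLE vector. The labelled MCF10A Twist arrays stood apart from the other MCF10A arrays, with a fall of 1.41 ± 0.07 (SE, adjusted p = 3.36e-11), and it fell in HMLE Snail (-0.43) and HMLE Twist (-0.21). ABCB8, also of the inner mitochondrial membrane, fell in HMLE Snail (-0.35) and labelled MCF10A Twist (-0.48) on the chosen probe set, but its other 2 probe sets gave 0.20 and 0.10 in HMLE Snail, and 0.12 and 0.10 in labelled MCF10A Twist. ABCB9, the lysosomal peptide transporter TAPL, fell by 0.23 in HMLE Snail and rose by 0.28 in labelled MCF10A Twist. Of 16 measured haem and iron-sulfur genes, 5 rose and 4 fell in HMLE Snail, 5 rose and 2 fell in HMLE Twist, 2 rose and 1 fell in MCF10A Snail, and 5 rose and 5 fell in labelled MCF10A Twist, where ALAS1, the first enzyme of haem synthesis, rose by 1.48; ALAS1 also rose by 0.20 in HMLE Twist and 0.25 in MCF10A Snail.

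ABCD2, a fatty acyl-CoA transporter of the peroxisomal membrane, was the other member besides ABCA8 to change 2-fold in MCF10A Snail. It was 6.88, 6.90 and 6.83 in MCF10A Snail and 5.71, 5.55 and 5.56 in labelled MCF10A Twist, against 5.84, 5.88 and 5.77 in MCF10A vector, and between 5.32 and 5.64 in the 9 HMLE arrays. The MCF10A Snail arrays lay above all other arrays, with a rise of 1.04 ± 0.07 (SE, adjusted p = 9.94e-09), and ABCD2 fell by 0.23 in labelled MCF10A Twist. The mean of ABCD2 over the 18 arrays was 5.82, at the 10.8th percentile of all genes, so these sizes rest on signal in the low range. ABCD3 (PMP70), an abundant peroxisomal membrane protein, fell in HMLE Snail (-0.30) and labelled MCF10A Twist (-0.37), and ABCD4, needed for lysosomal cobalamin export, fell by 0.23 in HMLE Twist. Of 15 measured peroxisomal genes, 6 rose and 3 fell in HMLE Snail and in HMLE Twist, none rose and 5 fell in MCF10A Snail, and none rose and 11 fell in labelled MCF10A Twist. Over all genes 12% fell in MCF10A Snail, and 26.5% rose and 23.9% fell in labelled MCF10A Twist. The last count rests on the line label: against HMLE vector, 7 of the 15 were higher and 4 lower in those arrays (49.2% of all genes passed in either direction). HMLE vector itself was lower than MCF10A vector in 12 of the 15 and higher in none (background 20.6% lower and 23.4% higher). SLC27A2, a very long chain acyl-CoA synthetase, fell in HMLE Snail (-1.21), HMLE Twist (-1.25), MCF10A Snail (-2.74) and labelled MCF10A Twist (-3.44). Of 5 measured cobalamin genes, 2 rose and 2 fell in each HMLE comparison, none rose and 2 fell in MCF10A Snail, and 2 rose and 1 fell in labelled MCF10A Twist, and TCN2, the plasma carrier transcobalamin, rose by 2.22 in HMLE Snail, 1.62 in HMLE Twist and 0.39 in labelled MCF10A Twist and fell by 0.25 in MCF10A Snail.

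The soluble E and F proteins changed little. ABCE1, the ribosome recycling factor, fell in HMLE Snail (-0.43) and labelled MCF10A Twist (-0.22), ABCF1, of translation initiation, fell by 0.24 in HMLE Snail, and ABCF2 fell in HMLE Snail (-0.45) and HMLE Twist (-0.28). None of the 4 passed in MCF10A Snail. Of 11 measured ribosome recycling and initiation genes, 1 rose and 8 fell in HMLE Snail, 1 rose and 5 fell in HMLE Twist, none passed in MCF10A Snail, and 1 rose and 4 fell in labelled MCF10A Twist. EIF2S2 and EIF2S3, subunits of initiation factor eIF2, fell in HMLE Snail (-0.52 and -0.50) and HMLE Twist (-0.37 and -0.33).
The subunits of ATP-sensitive potassium channels showed 1 change: ABCC9 (SUR2) rose by 0.66 in HMLE Snail, while ABCC8 (SUR1) passed in no comparison and neither of the 2 measured pore genes did. ABCC9 averaged 5.58 over the 18 arrays, at the 8.3rd percentile of all genes, so this rise rests on signal in the low range.
Of 7 measured genes in the list of ABC proteins with other symbols (TAP1, TAP2 and CFTR) and the antigen processing partners of the TAP pump, 3 rose and 3 fell in HMLE Snail, 3 rose and 1 fell in HMLE Twist, none rose and 3 fell in MCF10A Snail, and 2 rose and 2 fell in labelled MCF10A Twist. TAP2, a subunit of the peptide pump that loads MHC class I, fell in HMLE Snail (-1.28 ± 0.09, SE), HMLE Twist (-0.93) and labelled MCF10A Twist (-0.28). PSMB9, an immunoproteasome subunit, rose by 0.17 in HMLE Snail, 1.09 in HMLE Twist and 1.72 in labelled MCF10A Twist and fell by 0.27 in MCF10A Snail, and the chloride channel CFTR passed in none.

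Whether the Snail change differed between the lines was tested with an interaction term. The Snail change in HMLE minus that in MCF10A passed the test for 22 of 43 members, against a background of 40.2%, and was at least 2-fold for 8, against 8.62%. The difference was 4.31 ± 0.16 for ABCA6, 1.76 ± 0.19 for ABCA8 (adjusted p = 7.64e-07), -2.36 ± 0.11 for ABCA12 and -2.62 ± 0.16 for ABCG2 (SE; adjusted p = 7.59e-10). It was 1.27 ± 0.10 for ABCA1, 1.25 ± 0.15 for ABCA9, 1.12 ± 0.08 for ABCA2 and -1.15 ± 0.10 for ABCD2. ABCA8 rose in both lines, from vector signals too low to fix either size. The ABCA6, ABCA9, ABCD2 and ABCG2 differences also involved groups with signals in the low range, so their sizes are not fixed either. ABCA1, ABCA2 and ABCB6 rose in HMLE and fell in MCF10A, ABCG2 fell in HMLE and rose in MCF10A, and ABCD2 rose in MCF10A without passing in HMLE (-0.12). The epithelial and fibroblast markers also differed, with 7 of 7 epithelial markers lower and 8 of 8 fibroblast markers higher in this contrast, and their part in the ABC differences was not tested. GRHL2, low in both MCF10A vector and MCF10A Snail, is among the 7.

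**Figure D4:**
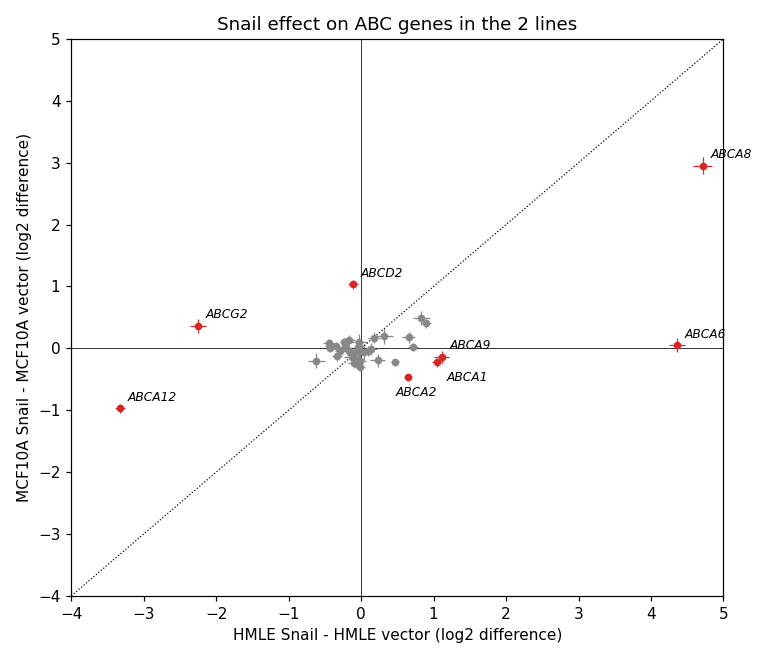
Snail change of each ABC gene in HMLE (horizontal axis, log2 difference against HMLE vector) and in MCF10A (vertical axis, against MCF10A vector), 1 point per gene with SE bars, red and named where the interaction passed the test at 2-fold or more; the dotted line marks equal change. ABCA8 is higher in both (4.71 and 2.95), ABCA6 in HMLE alone (4.36 and 0.05), and ABCG2 has opposite signs (-2.26 and 0.37).

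HMLE Snail and HMLE Twist were also compared directly. Of 43 members, 8 were higher (background 14.3%) and 10 lower (17.9%) in HMLE Snail than in HMLE Twist, with 32.1% of all genes passing in either direction, and 4 differed at least 2-fold (background 2.82%). These were ABCA8, ABCC3 and ABCA13, higher with Snail, and ABCA3, lower with Snail, with the values given above. MCF10A Snail differed from labelled MCF10A Twist in 21 members (background 49.5%), 8 of them at least 2-fold (8.68%), the largest being ABCA12 (4.64), ABCC2 (2.85) and ABCA1 (-2.29).

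The lines differed without any factor. HMLE vector differed from MCF10A vector in 21 members (background 44%), of which 7 were higher (23.4%) and 14 lower (20.6%), and 8 differed at least 2-fold (background 6.35%). HMLE vector was higher in ABCA1 (1.45), ABCG2 (1.34) and ABCA13 (1.03) and lower in ABCA6 (-4.26), ABCC2 (-3.10), ABCA12 (-1.48), ABCB6 (-1.31) and ABCA2 (-1.24).
Over the 43 genes, the arrays labelled MCF10A Twist lay nearer to the HMLE factor groups than to the other MCF10A groups. Their group mean was closest to HMLE Twist for 12 genes, to HMLE Snail for 10, to HMLE vector for 8, to MCF10A Snail for 8 and to MCF10A vector for 5. The root mean square difference was 0.43 to HMLE Twist and 0.74 to HMLE Snail. It was 1.067 to HMLE vector, 1.075 to MCF10A Snail and 1.14 to MCF10A vector. The median absolute difference put HMLE Snail first, at 0.159, followed by HMLE Twist at 0.183. It was 0.219 to MCF10A Snail, 0.23 to HMLE vector and 0.238 to MCF10A vector. By these measures HMLE vector was about as far from these arrays as MCF10A Snail. Whether the closeness goes with line or with factor was not tested. Against HMLE Twist, 21 members passed (background 36.2%) and 3 differed at least 2-fold (background 3.4%): ABCG2 was higher by 1.09, ABCA8 was lower by 1.54, and ABCG1 was lower by 1.00. Against HMLE vector in place of MCF10A vector, 24 members passed (background 49.2%) and 6 at least 2-fold (background 9%); ABCA6 then was higher by 4.38, ABCA12 was lower (-4.13), and 4 members had calls in opposite directions against the 2 vectors. ABCG2 was lower against HMLE vector (-0.70) and higher against MCF10A vector (0.65), and ABCB9 was likewise lower (-0.31) and higher (0.28). ABCA2 was higher against HMLE vector (0.83) and lower against MCF10A vector (-0.41), and ABCB6 was likewise higher (1.04) and lower (-0.27). The Twist interaction, HMLE minus labelled MCF10A, passed for 22 members (background 39%) and was 2-fold for 8 (background 8.19%), and it rests on the line label.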

How the data were processed

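Total RNA was measured on 18 Affymetrix arrays in 6 groups of 3, grouped by the sample titles. The deposited values are on the log2 scale; the submitters' processing notes name RMA as the tool the authors used, and the version of the software and its settings were not given in the sources used here. RMA normalizes arrays to a common distribution, so a change in total RNA per cell cannot be seen; array medians ran from 7.698 to 7.793. Of 33297 probe sets, 19460 carried 1 gene symbol, 1754 carried several and 12083 were not listed in the platform annotation; 19429 symbols were matched by gene ID. The probe set with the highest mean per gene was kept, giving 18417 genes.

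A limma model (version 3.58.1, R 4.3.3) with 6 group means and 12 residual degrees of freedom was fitted over all genes for 11 comparisons, with Benjamini-Hochberg adjustment over all genes within each. On simulated data for HMLE Snail against HMLE vector with 18417 genes, it called 84% of 50 genes changed by 0.5, 100% of those changed by 1, 1.5 or 2, and 18 unchanged genes. The simulation used independent normal noise and changed only 50 genes at each size, whereas 47.7% of all genes were called in the data. Its figures check the code and are not error rates of the reported calls. The number of arrays limits the precision. Replicates of a group correlated at 0.99 to 0.997 and no arrays were identical.

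Same-numbered arrays deviated together (correlation over 0.1 for every number) only between MCF10A Snail and labelled MCF10A Twist, at 0.45, 0.37 and 0.11, and between labelled MCF10A Twist and HMLE Twist, at 0.64, 0.54 and 0.13. Numbers may therefore pair samples there, and were not taken to do so elsewhere. The labels do not state a pairing, and the values reported for these comparisons come from the fit without it. A replicate block over all 6 groups was run as an alternative. The members and the lists of related genes were chosen with earlier results of these data known. Any ABC gene could be named; array values were given for members changed at least 2-fold against vector and for some others described with their class, and of each list up to 4 members among those with the largest changes. Alternatives were centring, quantile normalization, a filter on dim genes, probe set averaging, other variance models, array weights, stricter thresholds, fewer groups in the fit, a replicate block and leaving out each array. Figures were drawn with matplotlib 3.10.9.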

Additional observations from a re-analysis of the deposited data

Results flagged for a closer look

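For 16 results the change against vector differed at least 2-fold between the lines by the interaction test of the limma fit (adjusted p under 0.05). For Snail, HMLE minus MCF10A, the differences were 4.31 for ABCA6, 1.76 for ABCA8, 1.27 for ABCA1, 1.25 for ABCA9, 1.12 for ABCA2, -1.15 for ABCD2, -2.36 for ABCA12 and -2.62 for ABCG2.

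For Twist, HMLE minus labelled MCF10A, they were 3.91 for ABCA6, 3.35 for ABCC2, 2.11 for ABCA12, 1.87 for ABCA8, 1.42 for ABCB6, 1.20 for ABCB10, 1.17 for ABCG1 and -2.43 for ABCG2. The Twist values rest on the line label that MTAP went against. The ABCA8 and ABCA6 values rest on vector signals in the low range, so their sizes are not fixed. The same holds for ABCG2, ABCD2 and ABCA9, whose means over the 18 arrays lay at the 18.6th, 10.8th and 16.5th percentiles of all genes.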

How the results depend on the processing

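Of 3538 alternative values for the 228 gene results that passed the test, 3335 kept their direction and side of the threshold, 202 kept their direction only and 1 reversed. The reversed value was ABCB8 in labelled MCF10A Twist against HMLE vector, which was 0.12 with the mean of its probe sets (adjusted p = 0.0739) and -0.23 with the chosen one (adjusted p = 0.00529). The 66 results of at least 2-fold stayed past the test in all 1042 alternative values. Requiring a 2-fold change left 6, 6, 2 and 7 members for HMLE Snail, HMLE Twist, MCF10A Snail and labelled MCF10A Twist against vector. It left 4 for HMLE Snail against HMLE Twist, 8 for MCF10A Snail against labelled MCF10A Twist, 8 for HMLE vector against MCF10A vector, 6 and 3 for labelled MCF10A Twist against HMLE vector and HMLE Twist, and 8 for each interaction. Array weights gave 33 members for HMLE Snail against HMLE Twist (18 without) and 32 for labelled MCF10A Twist against HMLE Twist (21 without); the weights' estimation stopped before it reached its convergence tolerance, and the cause of the difference was not tested. Leaving out 1 array gave 21 to 23 members in HMLE Snail, 17 to 23 in HMLE Twist, 8 to 10 in MCF10A Snail and 22 to 23 in labelled MCF10A Twist. With the replicate block, fitted as shared effects over all groups, the comparison of MCF10A Snail with labelled MCF10A Twist gave 23 members (21 without the block) and that of labelled MCF10A Twist with HMLE Twist 23 (21 without). In the first of these, ABCG2 (-0.28) lost its call with the block (adjusted p = 0.0558, 0.0461 without). Without the labelled MCF10A Twist arrays, 23, 21 and 11 members passed in HMLE Snail, HMLE Twist and MCF10A Snail. Signal near the array's lower range limits ABCA8 in both vector groups, ABCA6 in HMLE vector and the 14 members whose mean lay below the 25th percentile of all genes.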
